A study of Mus musculus with 7 samples.

Results

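The clustered histone genes were taken as every gene of the expression table whose symbol begins with Hist1h, Hist2h, Hist3h or Hist4h, which gave 68 of 24346 genes. Of these, 6 code for the linker histone H1, 18 for H2A, 19 for H2B (Hist3h2bb-ps, a pseudogene by its symbol, among them), 12 for H3 and 13 for H4. The Hist1 cluster holds 54 of them on chromosome 13 (mm10, from 21715763 to 23934851), the Hist2 cluster 10 on chromosome 3 (96219865 to 96270132) and the Hist3 cluster 3 on chromosome 11 (58948920 to 58956830). Hist4h4 lies alone on chromosome 6 (136801553 to 136804415). RNA was sequenced from the cerebral cortex of 7 male mice on a C57BL/6J background at postnatal day 100, with no treatment named. The 4 CrT-/y animals (replicates 0 to 3) were hemizygous for a deletion of exons 5 to 7 of Slc6a8, the X-linked gene of the creatine transporter. The 3 CrT+/y animals (replicates 1 to 3) were their wild-type littermates. The deletion is carried by every cell, and each library mixed the RNA of all cell types of the cortex, so that fewer cells of a type and less RNA per cell cannot be told apart.

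Core histones H2A, H2B, H3 and H4 form the protein spool around which DNA is wrapped, and H1 binds the DNA between spools. Most clustered histone genes are read during DNA replication, and their mRNAs end in a short stem-loop in place of a poly(A) tail. Cells that no longer divide make replacement histones from genes outside the clusters, whose mRNAs are polyadenylated, and some clustered genes are also known to give polyadenylated mRNAs in such cells. The libraries of this study came from a kit made for mRNA with a poly(A) tail, so these values are not a census of histone mRNA with a stem-loop end.

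The stem-loop is shown first because it is the feature that sets these mRNAs apart. It was searched as the 16 letters GGNNCTNTTNAGNNCC, with a stem of 6 base pairs around a loop of 4 bases, in the GENCODE M21 transcripts on the sense strand. All 68 genes matched by symbol, and 44 of them held the stem-loop, against 53 of 21877 protein-coding genes in all (0.242%). These 44 made up 83.0% of the 53. The most frequent letters were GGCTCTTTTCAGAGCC, in 26 genes. In the sites below, written 5' to 3' with 5 flanking bases, the stem-loop is in capitals, and the genes are 4 of the called members, with Hist1h4h as one whose model ends close to the loop.
Hist3h2a: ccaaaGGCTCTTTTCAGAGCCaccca
Hist3h2ba: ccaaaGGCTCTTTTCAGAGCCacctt
Hist1h1c: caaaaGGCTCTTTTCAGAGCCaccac
Hist1h1e: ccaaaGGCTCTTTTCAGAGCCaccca
Hist1h4h: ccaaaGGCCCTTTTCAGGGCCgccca

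The transcript models went on past the loop by 1643 bases in Hist3h2a, 169 in Hist3h2ba, 840 in Hist1h1c and 1153 in Hist1h1e, but by 46 in Hist1h4h. The models of Hist1h2bc, Hist1h4k and Hist2h2be, all well detected in cortex, held no match. The Hist1h4k model is only 312 bases long. A model that ends before the loop cannot show it, so no match does not mean that a gene lacks a loop. Across the family, 18 models ran more than 200 bases past the loop and had a median level of 0.657 FPKM (fragments per length of transcript, scaled to the size of the library), while the 19 that ended within 50 bases of it had a median of 0.0604 FPKM. This is a description across genes whose sequences are alike. The reads were 150 bases long, in pairs. Of all windows of that length in a gene's main transcript model, the share found also in another gene had a median of 25.2% over the 68 genes. It was 77.2% over the 15 listed at 0 in every animal and 3.85% over the 12 tested genes. Over the 18 models that ran more than 200 bases past the loop it was 6.61%. Over the 19 that ended within 50 bases of it, it was 59.3%. Where the model ends and how well reads can be placed therefore cannot be told apart in their levels. A pair of reads that both fall in windows found at another place may not be placed on 1 gene. The study kept reads with a unique alignment, so that values of genes with many such windows are uncertain. The shares above also count genes annotated over the same place on either strand. Gm20628, for one, covers Hist2h3b on the other strand. A window shared only in this way can still have a unique alignment.

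Most of the family was at or near 0 in adult cortex. Of the 68 genes, 15 were listed at 0 in all 7 animals, 15 more had a mean under 0.1 FPKM, 26 lay between 0.1 and 1 FPKM, and 12 reached 1 FPKM. Between 26 and 39 members per animal exceeded 0.01 FPKM. The 5 most abundant genes, Hist3h2a, Hist1h2bc, Hist3h2ba, Hist1h1c and Hist1h4k, made up 84.0% of the summed level. FPKM carry no count of reads, and the read totals that the study lists per library were not used here, so no counting error is given.

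**Figure D1:**
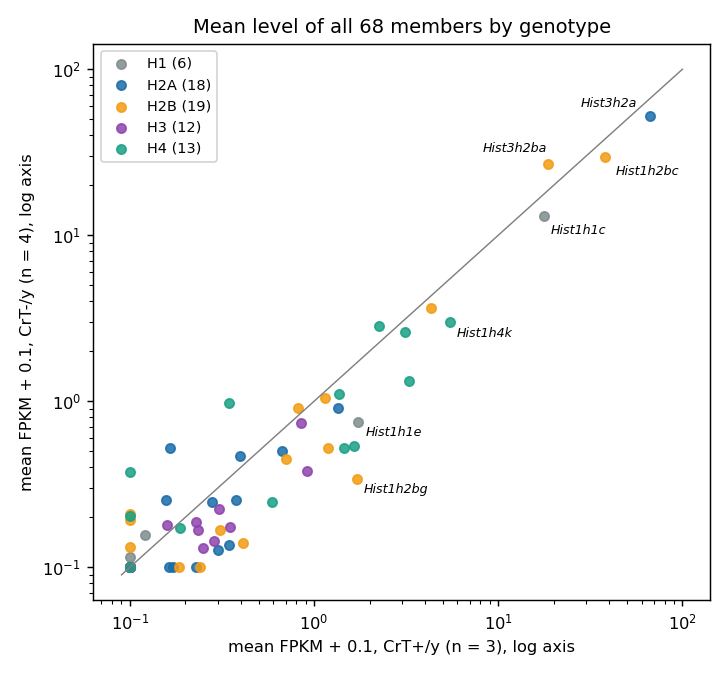
Mean level of the 68 clustered histone genes in CrT+/y (x axis, n = 3) and CrT-/y (y axis, n = 4) cortex, in FPKM with 0.1 added, on log axes, coloured by histone class. The line marks equal levels. Of the 7 genes with a name in the plot, only Hist3h2ba lies above the line, and most members lie under 1 FPKM.

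The table was first checked with the deleted gene. Its level was 12.4, 14.9, 14.7 and 15.7 FPKM in the CrT-/y cortices against 32.3, 29.6 and 28.0 FPKM in the CrT+/y cortices, with no overlap. The value covers the whole gene, exons outside the deletion included. The CrT-/y libraries had more genes above 0 (17612 to 17821) than the CrT+/y libraries (17207 to 17477), and whether this has a part in the results on low genes was not tested.

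To ask whether genotype changed the clustered histone genes, all genes that reached 1 FPKM on average were compared in limma on log2(FPKM + 0.1), which understates the change of low genes. Of the 12988 genes tested, 10.1% had an adjusted p under 0.1, which is what a call means here, 7.25% lower and 2.9% higher in CrT-/y animals. Of the 12 members tested, 5 were lower (Hist3h2a, Hist1h2bc, Hist1h1c, Hist1h4k and Hist1h1e) and 1 was higher (Hist3h2ba), or 50.0%. The median log2 fold change was -0.35 over these 12 genes and -0.03 over all genes tested, and 9 of the 12 were below 0, as were 58.2% of all genes. These 12 are not the whole family, and Hist1h1e, Hist1h2ac and Hist1h4d reached the filter only through their CrT+/y values, so that a lower CrT-/y mean was built into their passing. Over all genes, the split of 941 lower and 377 higher calls turned to 463 lower and 741 higher after upper quartile scaling, while the directions of the 6 called members did not turn under any scaling tried.

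The count of 5 lower members rested on single animals. It fell to 0 without CrT-/y replicate 3, where 8 members still had an unadjusted p under 0.05, to 1 without CrT-/y replicate 1, CrT-/y replicate 2 or CrT+/y replicate 2, and was between 2 and 3 without any of the others. With a filter of 0.1 FPKM, 38 members were tested, and 5 lower and 1 higher were called (15.8%, against 7.11% of all 15991 genes, 4.97% lower and 2.14% higher). Only 4 of these 6 were called in the main fit too. Hist1h2bc and Hist1h4k were lost, and Hist1h2be and Hist1h2bg were gained. Hist1h2be shares exon bases with Hist1h1e, which was also called. With no filter, 3 of 53 were called, all lower (5.66%, against 3.82% of all genes, or 2.74% lower). These were Hist3h2a, Hist1h1c and Hist1h2be.

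**Figure D2:**
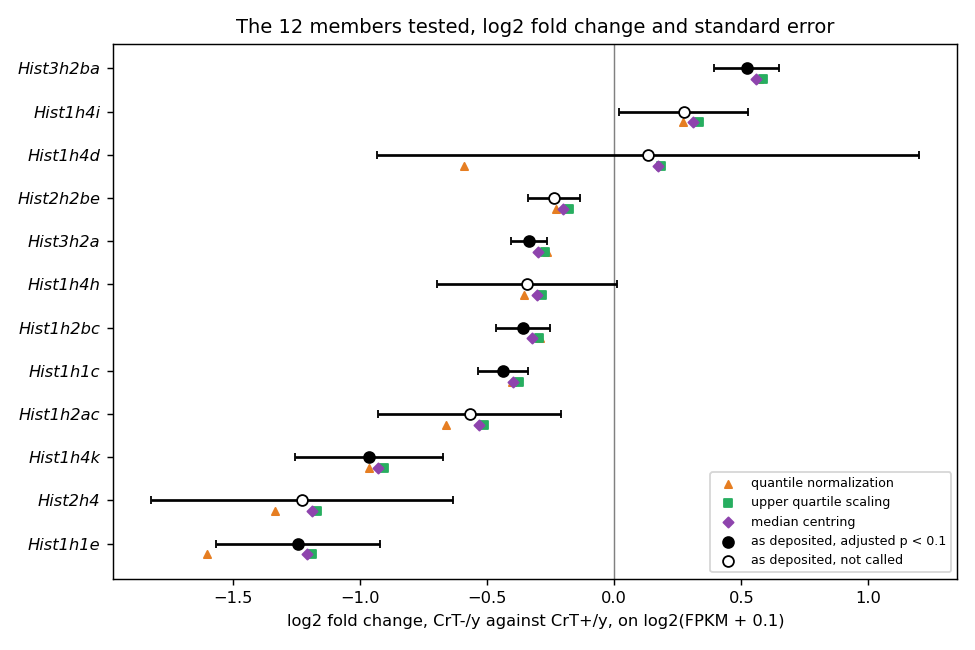
Log2 fold change (x axis, CrT-/y against CrT+/y, on log2(FPKM + 0.1)) of the 12 members that reached 1 FPKM on average, with bars of 1 standard error from limma, as circles that are filled where the adjusted p was under 0.1. Small symbols give the same value under 3 other scalings, and only Hist1h4d changes side, under quantile normalization.

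The H2A genes were dominated by Hist3h2a, the most abundant clustered histone gene of the cortex (chromosome 11, 58954685 to 58956830, plus strand). Its levels were 54.1, 51.0, 51.7 and 52.8 FPKM in CrT-/y and 63.3, 61.5 and 74.2 FPKM in CrT+/y animals. The groups stood apart, and the CrT-/y values lay close together. On average this was 52.4 ± 1.38 (SD, n = 4) against 66.3 ± 6.86 FPKM (SD, n = 3), a log2 fold change of -0.33 (standard error 0.07, adjusted p = 0.042 in limma). The log2 fold change stayed between -0.39 and -0.25 over all alternatives, and the adjusted p in limma passed 0.1 without CrT-/y replicate 1 (0.132) or 2 (0.116) and reached 0.10 without replicate 3. In the annotation an exon of Hist3h2a shares 708 bases with one of Trim17 on the same strand, and reads there cannot be told apart. Trim17 was at 1.48 to 2.20 FPKM in CrT-/y and 1.91 to 2.56 FPKM in CrT+/y animals, far below Hist3h2a.

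The other H2A gene tested, Hist1h2ac, had a mean close to the filter. It was at 0.500, 0.553, 1.29 and 0.900 FPKM in CrT-/y and at 0.953, 0.855 and 1.96 FPKM in CrT+/y animals, with overlap (log2 fold change -0.57, adjusted p = 0.35 in limma). Over the 18 H2A genes together, the summed level was 53.6 to 57.0 FPKM in CrT-/y and 65.1 to 78.3 FPKM in CrT+/y animals. The groups did not overlap, with the CrT-/y mean at 78.7% of the CrT+/y mean, and this sum is largely Hist3h2a. The other 16 H2A genes were under 1 FPKM or at 0.

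Hist3h2ba, an H2B gene 5151 bases upstream of Hist3h2a on the same strand (58948920 to 58949533), went the other way. It was at 24.3, 28.6, 22.6 and 31.0 FPKM in CrT-/y and at 16.0, 17.9 and 21.6 FPKM in CrT+/y animals. All CrT-/y animals were above all CrT+/y animals, with CrT-/y replicate 2 close to CrT+/y replicate 3. On average this was 26.6 ± 3.85 (SD, n = 4) against 18.5 ± 2.81 FPKM (SD, n = 3), a log2 fold change of 0.52 (standard error 0.13, adjusted p = 0.059 in limma). The direction held in every alternative, with log2 fold changes of 0.42 to 0.64, but the adjusted p in limma was 0.104 with no filter and 0.157, 0.124, 0.169 and 0.120 without CrT-/y replicate 1, CrT-/y replicate 3, CrT+/y replicate 1 and CrT+/y replicate 2.

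Since both genes were read in the same library, their ratio does not depend on scaling between animals. The ratio of Hist3h2ba to Hist3h2a, a pair chosen after its values were seen and so given no test, was 0.449, 0.561, 0.437 and 0.587 in CrT-/y and 0.254, 0.291 and 0.291 in CrT+/y animals. The lowest CrT-/y ratio was above the highest CrT+/y ratio. With 1 gene lower and the other higher, the summed level of the Hist3 cluster overlapped between genotypes, at 75.1 to 85.1 FPKM in CrT-/y and 80.5 to 96.2 FPKM in CrT+/y animals. The third gene, Hist3h2bb-ps, lies between them, ending 172 bases before Hist3h2a, and overlapped too, at 0.451 to 1.30 and 0.444 to 1.60 FPKM.

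The promoters of these neighbours are printed because the pair moved in opposite directions. Each is the 250 bases before the RefSeq start, written 5' to 3' on the plus strand of GRCm38.p6 (chr11:58954435-58954684 for Hist3h2a and chr11:58948661-58948910 for Hist3h2ba). Capitals mark, on either strand, the TATA box written as TATAAA, the CCAAT box, the octamer ATTTGCAT known from H2A and H2B genes, and the box AAACACA known from H1 genes.
Hist3h2a: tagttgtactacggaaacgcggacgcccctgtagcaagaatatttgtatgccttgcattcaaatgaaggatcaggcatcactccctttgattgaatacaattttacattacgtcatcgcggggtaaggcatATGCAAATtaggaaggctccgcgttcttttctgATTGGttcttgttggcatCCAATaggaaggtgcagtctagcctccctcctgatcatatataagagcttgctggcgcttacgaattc
Hist3h2ba: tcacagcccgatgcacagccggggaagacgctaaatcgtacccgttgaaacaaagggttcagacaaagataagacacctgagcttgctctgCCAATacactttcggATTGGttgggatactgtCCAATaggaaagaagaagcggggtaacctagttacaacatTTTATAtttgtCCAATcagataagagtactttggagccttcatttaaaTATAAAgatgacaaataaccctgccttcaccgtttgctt

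The Hist3h2a window held 2 CCAAT matches and 1 octamer and no TATAAA. Only these exact letters were searched, so the stretch tatataag near the end of the Hist3h2a window was not counted. Hist3h2ba had 4 CCAAT and 2 TATAAA matches and no octamer. Of the 61 members with a window, 82.0% held CCAAT, against 37.5% of 27025 genes. All windows of H1, H2A and H2B genes held it, but 3 of the 12 of H4 genes. TATAAA was in 47.5% of members against 14.3% of genes. The octamer was in 23.0% of members against 1.81% of genes, with 41.2% in H2A, 43.8% in H2B and none in H1, H3 or H4. A match is a string of letters in a window, and a window without a match says nothing of the factor.

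The other H2B genes were lower in CrT-/y animals or did not separate. Hist1h2bc (chromosome 13, 23684199 to 23692908, plus strand), which starts 250 bases from Hist1h2ac and is read in the opposite direction, was at 30.3, 31.6, 26.5 and 28.9 FPKM in CrT-/y and at 31.1, 40.7 and 41.9 FPKM in CrT+/y animals. CrT+/y replicate 1 lay within the CrT-/y range. On average this was 29.4 ± 2.20 (SD, n = 4) against 37.9 ± 5.89 FPKM (SD, n = 3), a log2 fold change of -0.36 (standard error 0.11, adjusted p = 0.090 in limma). This call was lost in 13 of 17 alternatives, where the adjusted p in limma reached 0.205. It was lost without any 1 of the CrT-/y animals (0.139, 0.160, 0.205 and 0.167 in order of replicate) and without CrT+/y replicate 2 (0.195) or 3 (0.115).

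Hist2h2be was at 3.94, 3.08, 3.46 and 3.80 FPKM in CrT-/y and at 4.39, 4.24 and 4.00 FPKM in CrT+/y animals. The groups did not overlap, by a narrow gap, and the log2 fold change of -0.24 did not pass the test (adjusted p = 0.19 in limma). None of its windows of 150 bases recurred in another gene. The summed level of the 19 H2B genes overlapped, at 55.1 to 66.7 FPKM in CrT-/y and 57.8 to 74.1 FPKM in CrT+/y animals, with Hist3h2ba higher and Hist1h2bc lower in CrT-/y animals.

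Below 1 FPKM, Hist1h2be was at 0.399, 0.212, 0.636 and 0.446 FPKM in CrT-/y and at 0.888, 1.09 and 1.29 FPKM in CrT+/y animals. All CrT-/y animals were below all CrT+/y animals, and the log2 fold change of -1.24 had an adjusted p of 0.063 in limma with a filter of 0.1 FPKM and of 0.090 with none. Its model shares 450 exon bases with that of Hist1h1e on the same strand, so the pair are not separate observations. Hist1h2bg, named after its values were seen, was at 0.368, 0, 0.430 and 0.166 FPKM in CrT-/y and at 1.78, 0.468 and 2.57 FPKM in CrT+/y animals. The lowest CrT+/y animal was just above the highest CrT-/y animal, and the adjusted p in limma was 0.094 with a filter of 0.1 FPKM and 0.138 with none.

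**Figure D3:**
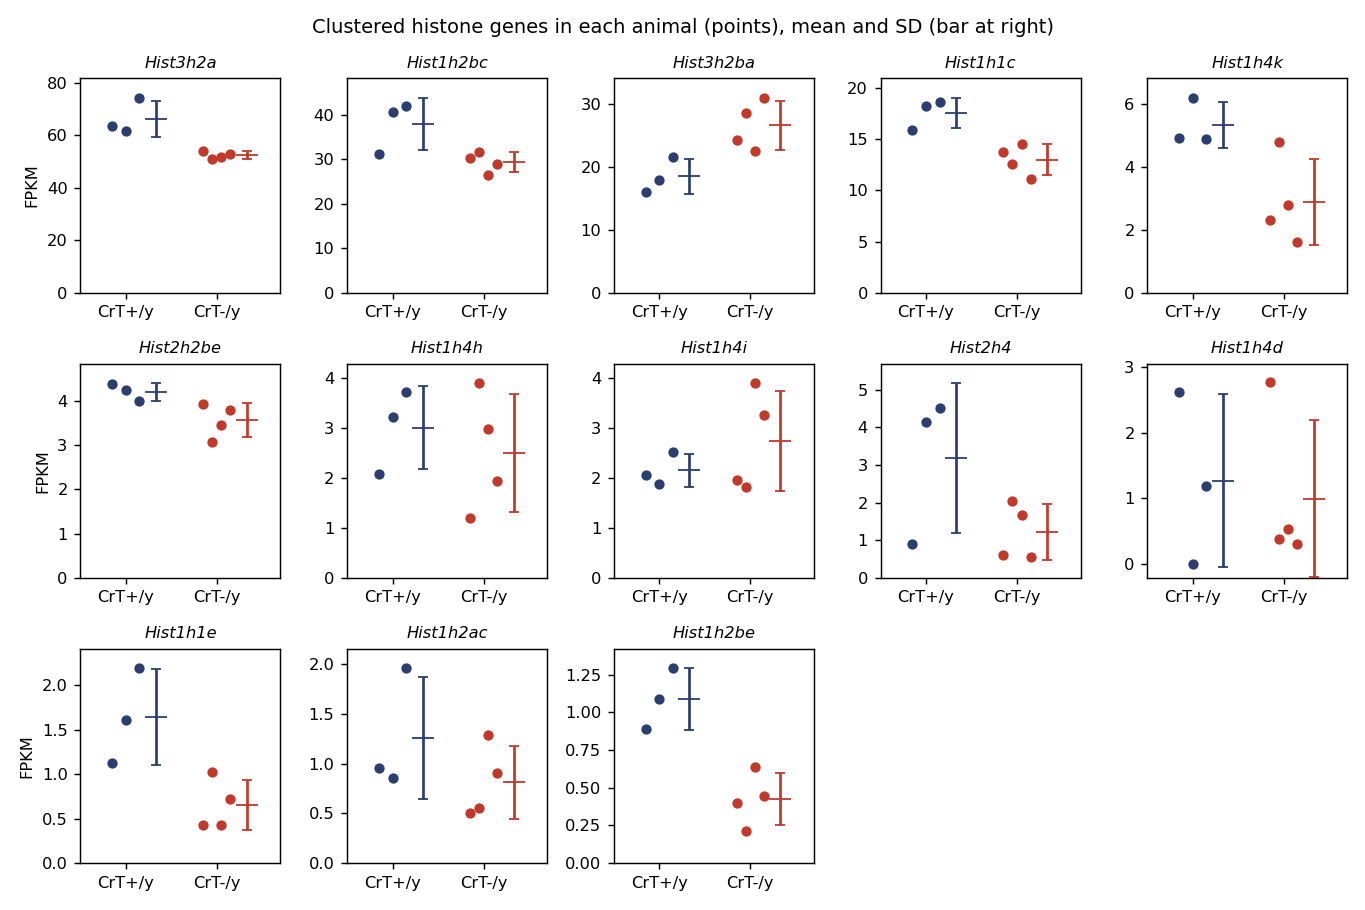
Level in each animal (points, FPKM, linear axes that include 0) of the 12 members that reached 1 FPKM on average and of Hist1h2be, with the mean and SD of each genotype as a bar at the right of its points. CrT-/y animals are red (n = 4) and CrT+/y animals blue (n = 3). Hist3h2ba is the panel in which all red points lie above all blue points.

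The 5 H4 genes tested differed in how steady they were. Hist1h4k (chromosome 13, 21750194 to 21750505, minus strand) was at 2.32, 4.80, 2.80 and 1.62 FPKM in CrT-/y and at 4.94, 6.21 and 4.89 FPKM in CrT+/y animals. CrT-/y replicate 1 lay just under the lowest CrT+/y animal and the other 3 well below it. On average this was 2.89 ± 1.37 (SD, n = 4) against 5.35 ± 0.745 FPKM (SD, n = 3), a log2 fold change of -0.96 (standard error 0.29, adjusted p = 0.094 in limma). The adjusted p in limma passed 0.1 in 13 of 17 alternatives, with 0.166, 0.183, 0.155, 0.195 and 0.200 without CrT-/y replicates 0, 2 and 3 and CrT+/y replicates 1 and 2. In this gene 53.4% of windows of 150 bases also occur elsewhere. H4 genes code for nearly the same protein.

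Hist2h4 was at 0.616, 2.03, 1.67 and 0.554 FPKM in CrT-/y and at 0.902, 4.14 and 4.53 FPKM in CrT+/y animals. CrT+/y replicate 1 fell among the CrT-/y animals, and the log2 fold change of -1.23 did not pass the test (adjusted p = 0.23 in limma). Hist1h4h (-0.34, adjusted p = 0.58 in limma) and Hist1h4i (0.27, adjusted p = 0.54 in limma) overlapped between genotypes. Hist1h4d was at 2.77, 0.381, 0.534 and 0.311 FPKM in CrT-/y and at 2.62, 0 and 1.19 FPKM in CrT+/y animals, which covers nearly the same range (log2 fold change 0.13, adjusted p = 0.95 in limma). Hist1h4c, with a mean under 1 FPKM and named after its values were seen, was at 0.711, 0.777, 0.274 and 0 FPKM in CrT-/y and at 1.07, 1.93 and 1.63 FPKM in CrT+/y animals. Its groups did not overlap, and with a filter of 0.1 FPKM its adjusted p was 0.14 in limma. The H4 genes summed to 8.65 to 17.8 FPKM in CrT-/y and 17.6 to 19.5 FPKM in CrT+/y animals, and only CrT-/y replicate 1 reached the CrT+/y range. Hist4h4 was listed at 0 in 3 of 4 CrT-/y animals and in CrT+/y replicate 3, and was at 0.582 FPKM in CrT-/y replicate 3 and at 0.615 and 0.851 FPKM in CrT+/y replicates 1 and 2.

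No H3 gene reached 1 FPKM on average. The highest, Hist2h3b, was at 0.794, 1.03, 0.513 and 0.239 FPKM in CrT-/y and at 0.736, 0.817 and 0.692 FPKM in CrT+/y animals, with overlap. Over the 12 H3 genes the summed level was 0.510 to 3.15 FPKM in CrT-/y and 2.18 to 3.09 FPKM in CrT+/y animals. The highest sum was that of CrT-/y replicate 1, so that a CrT-/y mean at 53.8% of the CrT+/y mean went with overlapping groups.

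Of the 6 linker histone genes 2 were tested, and Hist1h1c was the one that passed the filter in both genotypes. Hist1h1c (chromosome 13, 23738808 to 23740367, plus strand), which codes for a widely used somatic H1, was at 13.7, 12.6, 14.6 and 11.1 FPKM in CrT-/y and at 15.9, 18.2 and 18.6 FPKM in CrT+/y animals. No CrT-/y animal reached the lowest CrT+/y animal. On average this was 13.0 ± 1.49 (SD, n = 4) against 17.6 ± 1.46 FPKM (SD, n = 3), a log2 fold change of -0.44 (standard error 0.10, adjusted p = 0.051 in limma). It stayed between -0.51 and -0.36 over all alternatives, and the adjusted p in limma was 0.145, 0.101 and 0.108 without CrT-/y replicate 1, CrT-/y replicate 3 and CrT+/y replicate 2. None of its windows of 150 bases recurs in another gene.

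Hist1h1e (23620629 to 23622558, minus strand), another somatic H1 gene 116249 bases away, was at 0.425, 1.02, 0.430 and 0.724 FPKM in CrT-/y and at 1.12, 1.61 and 2.19 FPKM in CrT+/y animals. The highest CrT-/y value was just under the lowest CrT+/y value. On average this was 0.650 ± 0.284 (SD, n = 4) against 1.64 ± 0.537 FPKM (SD, n = 3), a log2 fold change of -1.24 (standard error 0.32, adjusted p = 0.065 in limma). Its passing the filter rested on the CrT+/y animals, and part of its exon is shared with Hist1h2be. The call was lost in 8 of 15 alternatives, among them those without any 1 of the CrT-/y animals (adjusted p in limma 0.124, 0.113, 0.152 and 0.122 in order of replicate) and without CrT+/y replicate 1 (0.105). The other 4 H1 genes were under 0.1 FPKM on average, and Hist1h1a and Hist1h1t were listed at 0 in all animals. The 6 genes summed to 11.9 to 14.99 FPKM in CrT-/y and 17.0 to 20.9 FPKM in CrT+/y animals, with the CrT-/y mean at 71.3% of the CrT+/y mean.

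The windows of both H1 genes are shown because both were called, with the same motifs in capitals (GRCm38.p6, chr13:23738557-23738806 on the plus strand for Hist1h1c and chr13:23622559-23622808 on the minus strand for Hist1h1e, 5' to 3').
Hist1h1c: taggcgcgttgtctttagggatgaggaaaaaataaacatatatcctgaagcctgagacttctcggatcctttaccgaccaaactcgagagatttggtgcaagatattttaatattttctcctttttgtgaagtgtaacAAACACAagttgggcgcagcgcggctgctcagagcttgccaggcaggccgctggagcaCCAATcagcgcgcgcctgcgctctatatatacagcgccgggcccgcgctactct
Hist1h1e: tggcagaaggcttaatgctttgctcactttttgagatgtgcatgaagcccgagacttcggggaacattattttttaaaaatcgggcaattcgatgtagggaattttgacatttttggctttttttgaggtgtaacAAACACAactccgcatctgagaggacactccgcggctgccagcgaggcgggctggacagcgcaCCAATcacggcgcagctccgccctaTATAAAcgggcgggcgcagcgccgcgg

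In Hist1h1c the AAACACA box lay 112 bases and CCAAT 54 bases before the start. In Hist1h1e they lay 115 and 52 bases before it, with TATAAA at 27 bases, a match that Hist1h1c lacked. The stretch tatatata near the end of the Hist1h1c window was not counted, since only the exact letters TATAAA were searched. AAACACA was in 5 of the 6 H1 windows (83.3%), in 7.20% of all genes, and in 14.8% of the 61 members with a window.

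Summed over the 68 genes, the level was 146.0, 154.5, 139.0 and 142.1 FPKM in CrT-/y and 159.7, 175.0 and 195.6 FPKM in CrT+/y animals. All CrT-/y animals were below all CrT+/y animals, and the CrT-/y mean was 82.3% of the CrT+/y mean. As a share of each animal's summed FPKM over all genes, the groups overlapped. The members made up 0.0363% to 0.0403% in CrT-/y and 0.0396% to 0.0487% in CrT+/y animals. Within the clusters, Hist1 was at 50.6 to 66.0 FPKM in CrT-/y and 71.7 to 88.6 FPKM in CrT+/y animals with no overlap, and Hist2 at 5.78 to 8.44 against 6.88 to 11.1 FPKM with overlap. The sums are descriptions, with no test, and the classes that hold most of the level, H2A and H2B, differed in whether their groups overlapped.

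**Figure D4:**
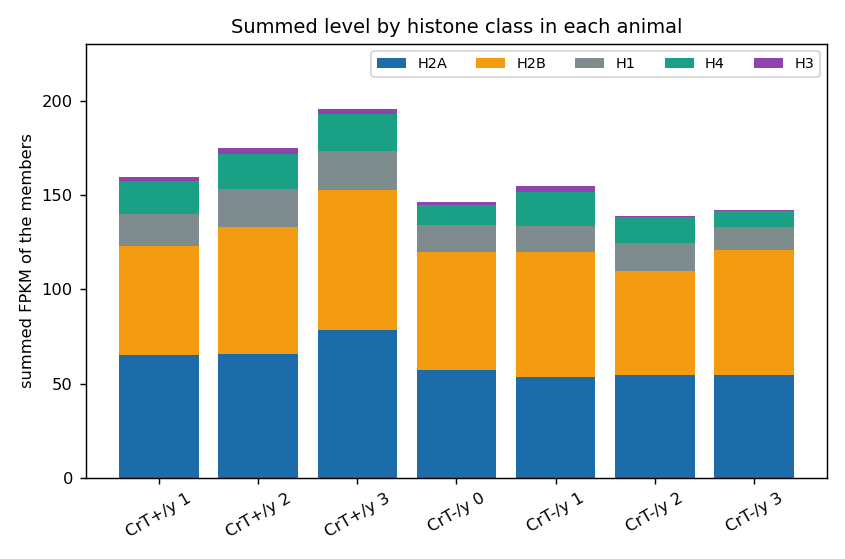
Summed FPKM of the members in each animal (bars from 0), split by histone class. The 3 CrT+/y bars end between 159.7 and 195.6 FPKM and the 4 CrT-/y bars between 139.0 and 154.5 FPKM, and H2A and H2B make up most of each bar.

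Most members of low level had a lower mean in CrT-/y animals. The 41 members above 0 and under 1 FPKM were lower by their means in 28 cases and higher in 13. Of the 53 members with any value, 37 had a log2 fold change below 0, as had 51.8% of all genes with no filter. With the 15 at 0, these members summed to 5.14 to 13.1 FPKM in CrT-/y and 14.2 to 14.6 FPKM in CrT+/y animals. The CrT+/y sums were nearly equal and the CrT-/y sums were spread out below them. Of the 41, 6 exceeded 0.01 FPKM in all 7 animals and 7 in a single animal. By genotype, 6 of the 41 exceeded it in CrT-/y animals only and 5 in CrT+/y animals only. Among the 53 members with any value, 9 had CrT-/y values below all CrT+/y values and 1 had them above. Of all genes with any value, 10.9% lay below and 5.9% above in this way.

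The replacement histones, which differentiated cells use in place of the clustered genes, gave 1 call, to lower levels, among 11 tested genes of 18 in the table (9.09%, against 7.25% of all genes). H2afv, a form of H2A.Z, was at 17.4, 18.1, 17.4 and 17.1 FPKM in CrT-/y and at 21.5, 20.5 and 21.3 FPKM in CrT+/y animals, with no overlap (log2 fold change -0.27, adjusted p = 0.037 in limma). Its call was lost without CrT-/y replicate 1 or 2 or CrT+/y replicate 1, each of which left 0 calls in the list. The most abundant, H3f3b and H3f3a, which both code for H3.3, had log2 fold changes of 0.10 (adjusted p = 0.47 in limma) and 0.13 (adjusted p = 0.17 in limma). These 2 genes were at 114 to 154 FPKM in each animal, a level per length of transcript that no clustered H3 gene came near. The median log2 fold change of the 11 was -0.02, against -0.35 for the 12 clustered genes.

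Of the genes that form or read the stem-loop end, 21 of 22 in the table were tested, 15 had a log2 fold change below 0 (71.4%, against 58.2% of all genes tested) and 3 were lower (14.3%, against 7.25%). The median log2 fold change was -0.09, against -0.03 over all genes. Eri1, a nuclease that trims histone mRNA ends, was at 3.21, 3.32, 3.09 and 3.15 FPKM in CrT-/y and at 4.61, 4.61 and 3.94 FPKM in CrT+/y animals. Its log2 fold change was -0.44 (adjusted p = 0.040 in limma). Ncbp2, of the cap-binding complex, was at 20.5 to 23.7 against 25.8 to 30.4 FPKM (-0.31, adjusted p = 0.055 in limma). Srrt, a partner of that complex, was at 22.5 to 23.8 against 26.3 to 27.5 FPKM (-0.22, adjusted p = 0.051 in limma). None of the 3 overlapped between genotypes. Slbp, the stem-loop binding protein, had a log2 fold change of -0.03 (adjusted p = 0.79 in limma). The most abundant, Cstf2t (-0.09) and Sympk (-0.10), were not called, and no gene of the list was called without CrT-/y replicate 1, CrT-/y replicate 2 or CrT+/y replicate 1.

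Of the histone chaperones, which carry histones to DNA, 25 of 28 were tested and 2 were lower, a share of 8.0% that is near the 7.25% of all genes. Nasp, which binds H3 and H4 and linker histones, was at 8.03, 6.96, 7.54 and 6.56 FPKM in CrT-/y and at 11.2, 9.16 and 8.65 FPKM in CrT+/y animals, without overlap (log2 fold change -0.40, adjusted p = 0.067 in limma). Nap1l2, a neuronal member of the NAP1 family, was at 50.1 to 55.9 against 58.6 to 74.1 FPKM (-0.28, adjusted p = 0.083 in limma). The most abundant were Nap1l5 (-0.07, adjusted p = 0.51 in limma) and Nap1l1 (-0.27, adjusted p = 0.17 in limma), and the median of the 25 was -0.10. Counts in this list ran from 0 to 8 as single animals were left out. Of these omissions only that of CrT+/y replicate 3 raised it above 2, sample weights gave 5, and leaving out CrT-/y replicate 1, 2 or 3 or CrT+/y replicate 1 or 2 gave 0.

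**Figure D5:**
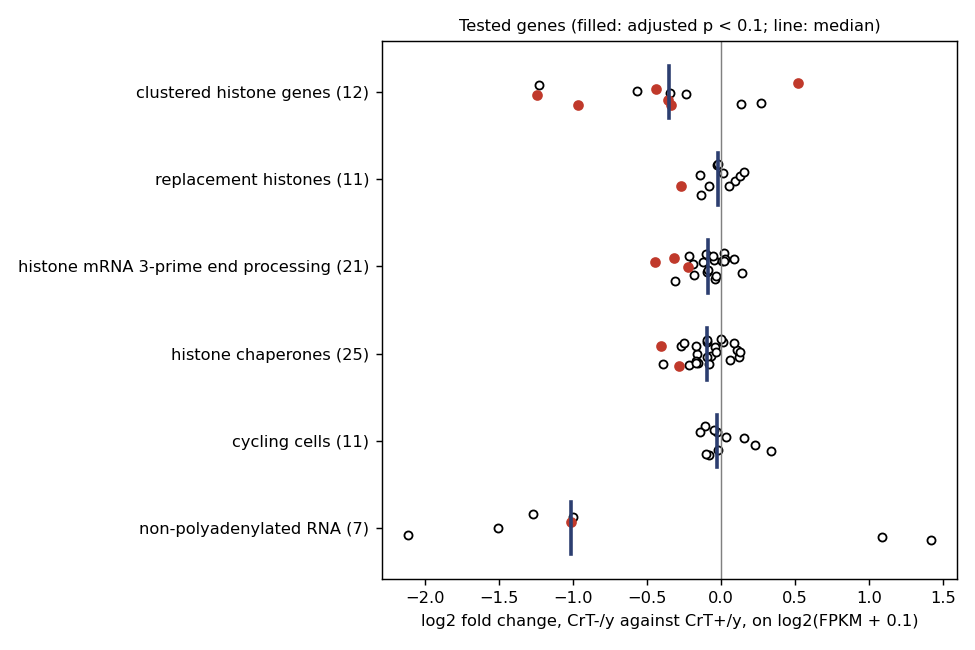
Log2 fold change (x axis, CrT-/y against CrT+/y, on log2(FPKM + 0.1)) of each tested gene in the clustered histone genes and 5 related lists, with the number tested in brackets. Red points had an adjusted p under 0.1 in limma and bars mark medians, which lie at -0.35 for the clustered genes, at -1.02 for the 7 non-polyadenylated RNAs, whose values are widely spread, and between -0.10 and -0.02 for the others.

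Since clustered histone genes are read in dividing cells, markers of the cell cycle were set beside them. Of 34 such genes 11 were tested and none was called, nor had any an unadjusted p under 0.05. Their summed level was 74.1 to 77.2 FPKM in CrT-/y and 71.8 to 74.4 FPKM in CrT+/y animals. Pcna, the DNA clamp, was near 30 FPKM in every animal (29.5 to 33.6 in CrT-/y and 29.8 to 31.3 in CrT+/y), and Ccne1 was the next most abundant (log2 fold change 0.16, adjusted p = 0.33 in limma). The defining marker of cycling cells, Mki67, was at 0.197 to 0.248 FPKM in CrT-/y and 0.153 to 0.252 FPKM in CrT+/y animals, and Top2a was at or under 0.419 FPKM throughout. With a filter of 0.1 FPKM, 30 were tested, 19 had a log2 fold change above 0 (median 0.16), and Ccna2, a cyclin of S phase and mitosis, was higher. Of all genes tested with that filter, 2.14% were called higher, and the median log2 fold change was -0.02. Ccna2 was at 1.03, 1.22, 1.20 and 1.04 FPKM in CrT-/y and at 0.750 to 0.787 FPKM in CrT+/y animals, and with that filter its log2 fold change was 0.49 (adjusted p = 0.092 in limma). In this fit 4 of the 30 had an unadjusted p under 0.05 in the higher direction and 1 in the lower. All CrT-/y animals were above all CrT+/y animals in Ccna2, Bub1b and Uhrf1, and below them in Pola1. These 4 of the 34 genes were named after their values were seen. Of all genes with any value, 5.9% lay above and 10.9% below in this way. The part of these cells in the histone values was not tested.

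RNAs without a poly(A) tail were set beside the histone genes, though too few were detected to measure how much of such RNA entered each library. Of 128 such genes in the table, 119 were listed at 0 in all animals and 7 were tested. Of the 7, 5 had a log2 fold change below 0 (71.4%, against 58.2% of all genes tested). The median was -1.02, farther below 0 than that of the clustered genes, though 4 of the 7 were listed at 0 in some animals. Scarna13 alone was called, to lower levels (14.3%, against 7.25% of all genes). It was at 2.75, 1.46, 2.11 and 2.44 FPKM in CrT-/y and at 4.32, 3.78 and 5.26 FPKM in CrT+/y animals. Its log2 fold change was -1.02 (adjusted p = 0.039 in limma), a call lost without CrT-/y replicate 2 or CrT+/y replicate 1. The most abundant by mean, Snora81 and Snora23, were listed at 0 in 4 and 3 of the 7 animals. Rpph1 ranged from 3.05 to 71.2 FPKM among CrT-/y and from 29.1 to 66.3 FPKM among CrT+/y animals, and Rmrp from 5.15 to 45.0 and from 18.7 to 37.4 FPKM. Both were lowest in CrT-/y replicates 2 and 3. The part of such RNA in the histone values was not tested.

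Markers of the cell types of the cortex were present in both genotypes, and a few moved with the histone genes. Of all genes tested, 7.25% were called lower and 2.9% higher, and 58.2% had a log2 fold change below 0. Of 6 endothelial markers, 50.0% were called lower in CrT-/y animals. These were Flt1 (-0.40, adjusted p = 0.042 in limma), Pecam1 (-0.31, 0.062) and Ly6c1 (-0.33, 0.098). Slco1a4, named after its values were seen, was at 15.1 to 16.5 against 13.5 to 14.7 FPKM (0.15, adjusted p = 0.17 in limma). The list summed to 100.1 to 116.7 against 115.8 to 135.1 FPKM. Neurod6, a marker of excitatory neurons, was also lower (-0.42, adjusted p = 0.061 in limma). Of 6 markers of oligodendrocyte precursors, 5 had a log2 fold change below 0 (median -0.16) and Olig2 was called (-0.39, adjusted p = 0.078 in limma), with sums of 33.4 to 37.4 against 39.2 to 44.0 FPKM, which did not overlap. Gad1 was the 1 of 7 inhibitory neuron markers that was called, with a higher level in CrT-/y cortex (0.24, adjusted p = 0.097 in limma), with sums of 848.7 to 987.8 against 916.0 to 933.7 FPKM. Markers of oligodendrocytes, microglia, astrocytes, immature neurons, blood and ependyma gave no call and no unadjusted p under 0.05 among genes of 1 FPKM or more. Their list medians ran from -0.55 (blood) to 0.05 (immature neurons). Log2 fold changes below 0 were found in 6 of 6 tested markers of oligodendrocytes (median -0.19) and 5 of 6 each of microglia and astrocytes. They were found in 4 of 6 of blood, 3 of 5 of ependyma and 1 of 4 of immature neurons. What part a change in these cells has in the histone values was not tested.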

How the data were processed

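Total RNA of 7 cortices was extracted with the Qiagen RNeasy Midi kit, and libraries were made with the Universal Plus mRNA-Seq kit and sequenced paired-end on a NovaSeq with reads of 150 bases. The authors deposited 1 table of FPKM for 24346 genes and 7 animals. The submitters' processing notes name Bowtie, Cuffnorm and mm10, with no versions, and per the study's methods reads with a unique alignment were kept. Use of strand is not given in the sources used here. All 7 columns were used, and the table holds no comparison columns.

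Genes that reached 1 FPKM on average over the 7 animals were tested for genotype in limma 3.58.1 (R 4.3.3) on log2(FPKM + 0.1), with a trended prior and Benjamini-Hochberg adjustment over all 12988 genes, and called at an adjusted p under 0.1, the threshold in the study's methods. The test was tried on simulated data with known changes. Values are from separate animals. The study lists read totals per library, which were not used here, since the values are FPKM and its CrT-/y libraries are numbered otherwise, and no interval for counting error is given. Figures and sums were made in Python 3.11.15 with pandas 2.3.3.

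The named genes are the members tested, those called with or without the filter, the highest of each class and cluster, the 2 highest and all called genes of each related list, and Slc6a8. Slbp, Mki67, Top2a, Ccna2, Bub1b, Uhrf1, Pola1, Slco1a4, Rpph1, Rmrp, Trim17, Hist1h4c and Hist1h2bg were added after their values were seen. The members and lists were chosen with earlier results of these data known. Gene positions and transcripts are from GENCODE M21 (GRCm38, the build mm10), promoter windows from RefSeq on GRCm38.p6, where 61 of 68 members matched. Protein sequences were not used here. The list of excitatory neuron markers is not reported here in full. Alternatives changed the pseudocount (0.01 and 1), the filter (0.1 FPKM and none), the scaling, the prior, sample weights, a replicate block and each animal left out in turn.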

Additional observations from a re-analysis of the deposited data

Results flagged for a closer look

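In groups of 4 animals, a highest or lowest value was marked where its gap to the nearest other animal took up most of the group's range by Dixon's criterion, which chance alone marks in about 1 of 20 groups. Over the 39 groups of CrT-/y values tested, 2 were marked. Hist1h4d was at 2.77 FPKM in CrT-/y replicate 0, while the other 3 CrT-/y animals were at 0.311 to 0.534 FPKM, and CrT+/y replicate 1 had a like value of 2.62 FPKM. Hist4h4 was at 0.582 FPKM in CrT-/y replicate 3 and listed at 0 in the other 3 CrT-/y animals. With these 3 at 0, the criterion marks any value above 0, so the rate of 1 in 20 does not hold for this mark.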

How the results depend on the processing

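The directions of the 6 called members held in every alternative. The count of 5 lower members became 3 with upper quartile scaling, median centring or no trend, and 2 with quantile normalization. With no filter it was 3, of which Hist1h1c and Hist3h2a were among the 5 and Hist1h2be was not. The count was 0 to 3 with single animals left out. The higher member became 0 with no filter and 0 to 1 with animals left out. Over all genes the 1318 calls became 730 with no filter and 64 (without CrT-/y replicate 1) to 3736 (without CrT+/y replicate 3) with animals left out. The share of calls that were higher went from 28.6% to 48.8% with quantile normalization, 61.5% with upper quartile scaling and 48.2% with median centring. Replacement histone calls were 2 with upper quartile scaling and 0 to 3 with animals left out. Calls in the genes of the stem-loop end ran from 0 to 5 and in non-polyadenylated RNA from 0 to 1 with animals left out. Chaperone calls were 0 with no filter, 1 with quantile normalization, median centring or no trend, 5 with sample weights and 0 to 8 with animals left out. Cycling genes gave 1 call with a filter of 0.1 FPKM and 0 to 2 with animals left out. The median member fold change ran from -0.51 to -0.27 and the summed level from 78.5% to 86.9% of CrT+/y with animals left out. Hist1h4d turned to -0.15 with a pseudocount of 1, -0.59 with quantile normalization, -0.50 with the replicate block and -1.28 without CrT+/y replicate 2, and ran up to 0.57 with other animals left out. The cause of these shifts was not tested.

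Replicate numbers were not used to pair animals in the main fit. Values of the same number deviated from their group means with correlations of -0.08, 0.05 and -0.05. For animals of unlike number the correlations ran from -0.20 to 0.25. With so few animals, these values cannot show whether the numbers stand for a pairing. With the replicate block, 2 members were lower and 1 was higher, 576 genes were called in all, and the calls were 0 among replacement histones, 0 among genes of the stem-loop end and 1 among chaperones. The files hold no read counts, so whether members at 0 were absent or below detection cannot be read from them.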
